A study of Arabidopsis thaliana with 6 samples.

Results

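Small heat shock proteins are chaperones of the HSP20 family that share an α-crystallin domain and need no ATP. They assemble into oligomers, bind proteins that begin to unfold, and keep them in a form that ATP-driven chaperones such as HSP70 and HSP101 can refold. In vegetative plant tissue their genes are mostly quiet until heat or oxidative stress, when heat stress transcription factors bind heat shock elements in their promoters, and they are also used in maturing seeds. Plants make forms for the cytosol and for several organelles.

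The genes described here are a list of 10 HSP20-type genes of the cytosol, the plastid and the mitochondrion, chosen by gene identifier from the 11167 genes listed in the table. Values were found for 8 of the 10, and all 8 were tested, since each reached 5 reads in some library. The plastid gene HSP21 (AT4G27670) and AT5G37670 were not analysed here. The 8 comprise HSP17.4 (AT3G46230) of class I, the cytosolic class II neighbours HSP17.6A (AT5G12030) and HSP17.6II (AT5G12020), HSP18.2 (AT5G59720), HSP23.6-MITO (AT4G25200) of the mitochondrion, and AT1G53540, AT1G59860 and AT1G07400, which the annotation calls only HSP20-like chaperones.

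The samples were whole 2 week old seedlings of the Arabidopsis *flu* 1-1 mutant in the Col-0 ecotype, kept in water in darkness for 0 h (3 libraries) or 4 h (3 libraries) and then exposed to light of 30 µE for 30 min. The treatment label describes these hours as light exposure. The protocol and design text, which give them as darkness, were followed. The growth light before treatment is continuous according to the labels and a cycle of light and dark according to the methods. This difference was not resolved. The FLU protein restrains chlorophyll precursor synthesis, so that mutant seedlings build up protochlorophyllide in darkness and produce singlet oxygen once lit. All libraries carry the mutation, and no wild type and no group kept 4 h in light were analysed here, so darkness, time in water, time of day and singlet oxygen cannot be told apart. According to the methods, several whole seedlings were pooled for each RNA sample.

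The libraries held between 1012425 and 2185464 reads assigned to genes, counted at transcript 3′ ends. Levels are given as CPM, the reads of a gene relative to the TMM-scaled size of its library, and 3 reads corresponded to between 1.36 and 2.97 CPM. Fold changes are 4 h over 0 h from edgeR's quasi-likelihood test, with a standard error (SE) or a 95% interval from the fit, and p-values were adjusted over all 10622 genes tested. The methods call the pools of seedlings biological replicates, whereas the labels do not say whether they came from separate cultures, and the p-values cover the spread between these pools. In these whole seedlings, a larger share of cells expressing a gene and more RNA per cell cannot be told apart. All 7 listed green leaf markers were present, at a summed 65842 to 75436 CPM after 0 h and 54597 to 66587 CPM after 4 h. Of them, RBCS2B, CAB2, RBCS3B and RCA passed the test as lower, at log2 fold changes of -1.46, -0.86, -0.65 and -0.61. RBCS1A, CAB1 and PSBO1 did not pass, at -0.01, 0.10 and -0.13. Of 7 root markers 6 were listed, at a summed 694 to 1037 CPM after 0 h and 546 to 632 CPM after 4 h, with LRX1 at 0 in 4 h replicate 3. The sum was made up mostly of PBP1 and GSR2, which fell by 0.67 and 0.43 on the log2 scale. GLL22 and LRX1, with fewer reads, had log2 fold changes of -1.62 and -2.33, and these genes all passed the test as lower. CASP1, at 0.46, and PYK10, at -0.13, did not pass. The lower sum of root markers after 4 h and the fall of several green leaf markers moved with the changes described below. Their part in those changes was not tested. The 9 listed seed markers were not analysed here.

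The genes sit on chromosomes 1, 3, 4 and 5. AT1G59860 lies at chr1:22031343-22032250 and AT1G07400 at chr1:2274926-2275783, both on the plus strand of the TAIR10.1 assembly. HSP17.6A, at chr5:3883957-3884838, and HSP17.6II, at chr5:3882231-3883111, follow each other on the minus strand with 845 bases between them. All but HSP23.6-MITO, which has 2 exons, are single-exon genes. The transcripts that were most alike were those of AT1G59860 and AT1G07400, at 86.6% identical bases over 753 aligned, followed by HSP17.6A and HSP17.6II at 85.2% over 759 and by HSP17.4 and AT1G53540 at 83.9% over 704. Stretches of 40 bases shared with another gene were nevertheless rare. AT1G59860 and AT1G07400 shared 4 such stretches, and the other 6 transcripts shared none with any annotated gene. HSP17.4 overlaps AT3G46220 and the antisense gene AT3G07365 on the opposite strand, and since the strand setting of the counting is not given in the sources used here, its reads could include reads of those genes.

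The regulatory sequence that links these genes is the heat shock element, built from the letters GAA and TTC in alternation. Windows of 400 bases before each start codon were searched for 2 units (GAANNTTC or TTCNNGAA) and for 3 units, in which the next GAA or TTC of the alternation follows after any 2 bases (NN). The 2-unit forms read the same on both strands, the 3-unit forms are each other's reverse complement, and every 3-unit match contains overlapping 2-unit matches. At least 2 units were found for 8 of 8 genes, against 28.8% of 27443 protein-coding genes, and 3 units for 3 of 8, against 0.966%. The matches are shown because they group the family by sequence, with the element in capitals and 5′ to 3′ on the strand of the gene.
HSP17.4, chr3:16984948-16984972, minus strand: aacataGAAGCTTCTTGAAgccacc
HSP17.4, chr3:16984867-16984891, minus strand: aaacctGAAATTTCAAGAAacttgc
AT1G53540, chr1:19980240-19980264, plus strand: acaccaGAAACTTCTTGAAagcacc
HSP18.2, chr5:24062390-24062414, plus strand: acaaacGAAACTTCCTGAAatgcca
AT1G59860, chr1:22031342-22031365, plus strand: tgcctcatTTCTAGAAgctctgga
AT1G07400, chr1:2274986-2275009, plus strand: cccgtaaaTTCTAGAAgctctgga
HSP17.6A, chr5:3884845-3884868, minus strand: caagacgtTTCTCGAAcgttagag
HSP17.6II, chr5:3883038-3883061, minus strand: caagacgtTTCTCGAAcaatacgg
HSP23.6-MITO, chr4:12916931-12916954, plus strand: cttctccaGAACATTCactcactg
Members with similar transcripts also had similar elements, which for AT1G59860 and AT1G07400 are part of the transcripts compared. AT1G59860 and AT1G07400 share the letters of the element and those after it, and HSP17.6A and HSP17.6II share the element and the letters before it. HSP17.4, AT1G53540 and HSP18.2 hold the 3-unit form. AT1G53540 and HSP18.2 hold further 2-unit matches that are not printed. In the 250 bases before the annotated transcript start, the window fixed first, only 3 of 8 genes held 2 units (16.1% of all protein-coding genes) and 2 held 3 units (0.386%). The elements of AT1G59860, AT1G07400, HSP17.6II, HSP18.2 and HSP23.6-MITO lie inside the annotated 5′ end of the transcript, and the window before the start codon was added after that was seen. A match is a description of the letters and not evidence that a factor binds there.

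**Figure D1:**
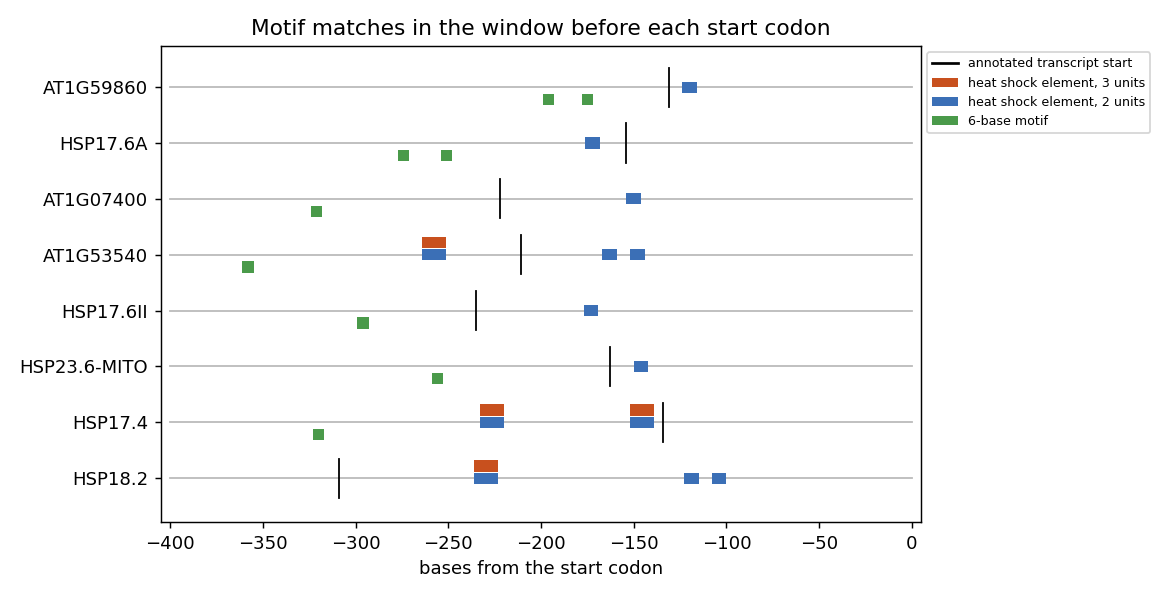
Position of motif matches in the 400 bases before the start codon of each of the 8 genes, ordered by fold change from the top, with the x axis in bases from the start codon. Blue and orange bars are heat shock elements of 2 and 3 units, green bars the 6-base motif GGCCCA on either strand, and black lines the annotated transcript start; HSP17.4, AT1G53540 and HSP18.2 hold 3-unit elements, and the other 5, called or not, hold 1 element of 2 units each.

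A further shared motif, noticed after the sequences were seen, was GGCCCA, searched on both strands (TGGGCC on the other). In the 250 bases before the annotated start it was present for 7 of 8 genes, all but HSP18.2. It was present for 13.7% of all protein-coding genes and for 16.5% of those tested. Because the motif was picked from these same windows, a high share among the 8 follows from that choice. The windows of HSP17.6A, HSP18.2, AT1G53540 and AT1G07400 overlap another annotated gene, so a match there may lie in that gene. The 30 bases that begin at the motif and run towards the gene are shown, with each match in capitals. The pair shown is the one with the most similar transcripts.
AT1G59860, chr1:22031275-22031304, plus strand: TGGGCCtttagagcccattatGGCCCAtaa
AT1G07400, chr1:2274824-2274853, plus strand: TGGGCCtcaggagcccattatagcccataa
They agree in 26 of 30 bases. No element was tested against the changes in transcript level.

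The comparison asked which small heat shock protein transcripts differ when *flu* seedlings come to the light after 4 h of darkness. AT1G59860, AT1G07400 and HSP17.6A rose, by 7.09-fold, 3.30-fold and 4.09-fold. The other 5 had estimates above 0 and did not pass the test. That is 3 of 8 higher (37.5%) and 0 lower by edgeR, where 8.37% of all genes tested were higher and 8.18% lower. The list was chosen with earlier results of these data known, so these shares describe it and do not test it. Without adjustment (p under 0.05) edgeR gave the same counts, as did DESeq2 and limma-voom after adjustment. Over all 10622 genes, DESeq2 called 1273 and limma-voom 1668 in either direction, against 1758 by edgeR. Shares by direction are not given for these settings, here or for the lists below. Such counts therefore only describe a list. The median log2 fold change of the 8 was 0.89, against -0.06 over all genes tested. The 3 that rose were also the ones whose groups did not overlap, where 15.3% of all genes tested had no overlap in that direction.

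AT1G59860 was measured at 8.56, 11.3 and 8.95 CPM after 0 h and at 77.8, 72.2 and 55.4 CPM after 4 h. Every 4 h library was far above every 0 h library, and the spread within each group was small (9.60 ± 1.47 against 68.5 ± 11.7 CPM, mean ± SD, n = 3). The log2 fold change was 2.83 (edgeR adjusted p = 6.71e-09, SE 0.25), which ranked 51 among all genes tested. AT1G07400, its closest relative here, was the most frequently read member. It was found at 23.8, 47.2 and 33.7 CPM after 0 h and at 113, 106 and 132 CPM after 4 h. The groups were again well apart, and the log2 fold change was 1.72 (edgeR adjusted p = 1.96e-06, SE 0.21). Its 95% interval (1.28 to 2.16) and that of AT1G59860 (2.31 to 3.34) did not overlap, but the difference between these genes was not tested.

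HSP17.6A, a cytosolic class II chaperone induced by heat and osmotic stress, was found at 4.28, 14.9 and 11.7 CPM after 0 h and at 41.9, 56.0 and 30.7 CPM after 4 h. The highest 0 h library was below the lowest 4 h library, with a log2 fold change of 2.03 (edgeR adjusted p = 6.24e-05, SE 0.32). Its neighbour HSP17.6II was measured at 2.45, 15.4 and 4.13 CPM after 0 h and at 12.3, 18.1 and 10.9 CPM after 4 h. Here 0 h replicate 2 lay above 2 of the 4 h libraries, and the log2 fold change of 0.82 (edgeR adjusted p = 0.247, SE 0.46) did not pass the test. In reads, HSP17.6A exceeded HSP17.6II in every library but 0 h replicate 2. The ratio of reads was 1.75, 0.967 and 2.83 after 0 h and 3.41, 3.10 and 2.82 after 4 h, with overlapping groups. Tested as 1 feature, the summed counts of the pair passed the test with an edgeR log2 fold change of 1.64 (SE 0.32, adjusted p = 0.000562).

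AT1G53540 showed the same arrangement of libraries as HSP17.6II. It was found at 1.22, 12.8 and 4.82 CPM after 0 h and at 10.9, 18.1 and 9.89 CPM after 4 h. The first of these values rests on 2 reads. Replicate 2 was the highest library of both groups, and the groups overlapped only through 0 h replicate 2 (log2 fold change 0.95, SE 0.48, edgeR adjusted p = 0.197). HSP17.4, a class I protein abundant in maturing seeds, was found at 9.78, 26.7 and 21.3 CPM after 0 h and at 34.6, 32.5 and 14.8 CPM after 4 h. A pair of the 4 h libraries was above all 0 h libraries, whereas 4 h replicate 3 was below a pair of them. The log2 fold change was 0.53, with a 95% interval from -0.13 to 1.20 (edgeR adjusted p = 0.289).

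The least frequently read members were HSP18.2 and HSP23.6-MITO. HSP18.2, a classical heat-inducible gene, drew 19 reads after 0 h and 22 after 4 h. Its levels of 3.67, 2.05 and 6.19 CPM after 0 h and 3.19, 9.93 and 3.96 CPM after 4 h were interleaved. The 95% interval of its log2 fold change ran from -0.77 to 1.72. HSP23.6-MITO, which works in the mitochondrion, had 18 and 24 reads. It was found at 2.45, 6.67 and 0.688 CPM after 0 h and at 3.64, 13.5 and 0.989 CPM after 4 h, replicate 2 being the highest and replicate 3 the lowest of each group, and its interval ran from -0.71 to 2.18. At this depth a change of several fold in either gene could be missed. HSP18.2 had a log2 fold change of 0.47 with all libraries and of -0.13 without 4 h replicate 2, and HSP23.6-MITO of 0.73 and -0.35.

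**Figure D2:**
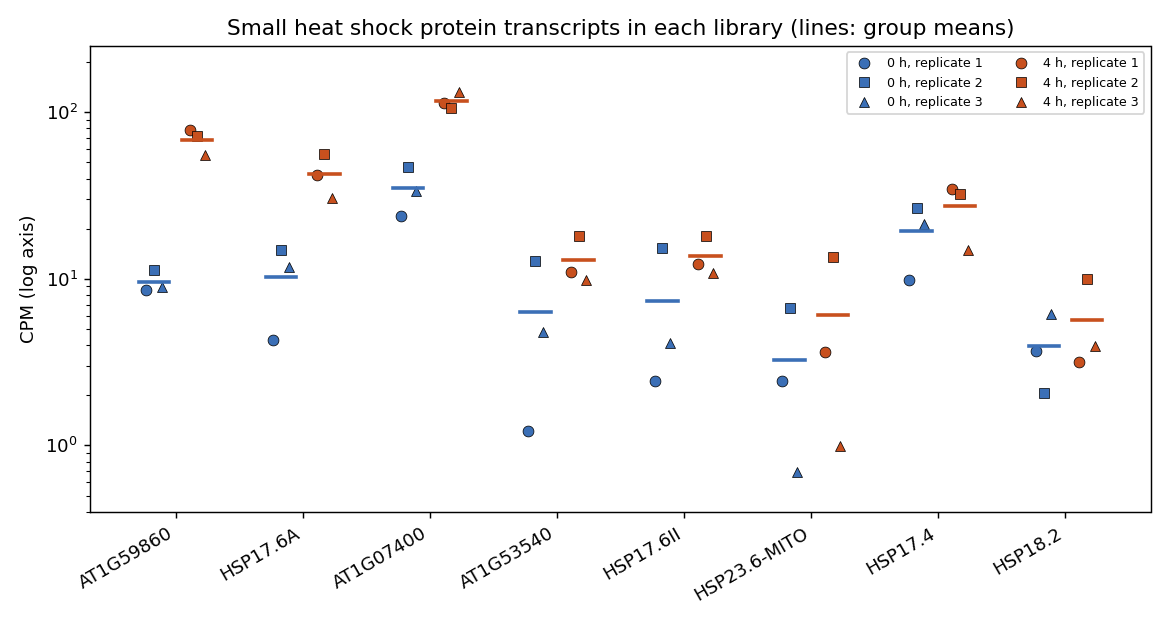
CPM of each of the 8 genes in each library on a log axis, blue for 0 h and orange for 4 h, with a symbol for each replicate and a line at the group mean. The groups are separate for AT1G59860, HSP17.6A and AT1G07400 and overlap for the others, where 0 h replicate 2 (blue square) often lies among the 4 h libraries.

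**Figure D3:**
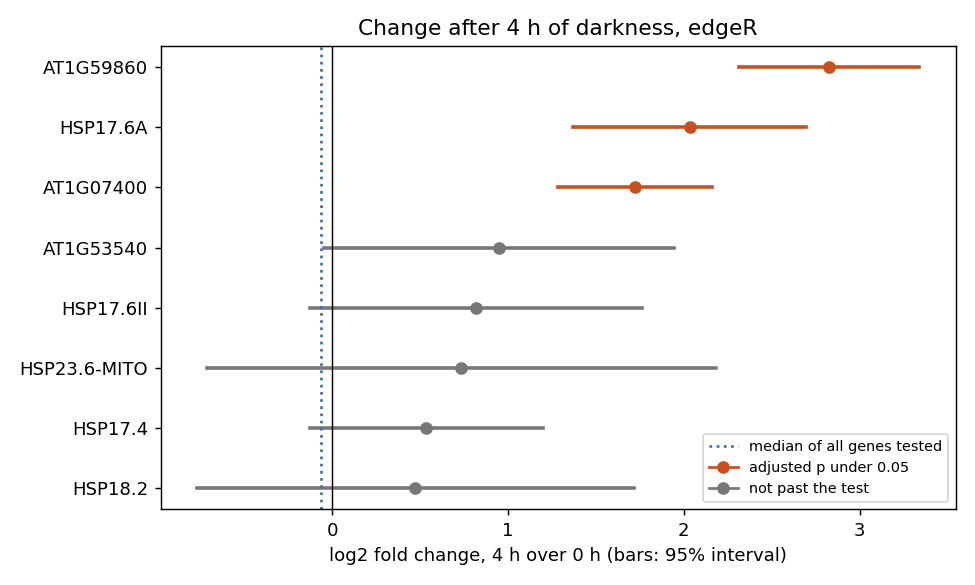
Log2 fold change (4 h over 0 h, points) with its 95% interval (bars) for the 8 genes, orange for those past the test and grey for the others. All 8 points lie above 0, and the intervals of 5 include 0, from HSP18.2 at 0.47 to AT1G53540 at 0.95.

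Summed over the 8 genes, the family was found at 56.2, 137 and 91.5 CPM after 0 h and at 297, 326 and 258 CPM after 4 h. Every 4 h library was above every 0 h library, and the group means of 94.9 ± 40.4 and 294 ± 34.1 CPM (SD, n = 3) gave a ratio of 3.10. AT1G07400 gave the largest share of the family's reads in each library, between 34.5% and 42.4% after 0 h and between 32.4% and 51.0% after 4 h. The share of AT1G59860 went from between 8.24% and 15.2% to between 21.5% and 26.2%, and that of HSP17.4 from between 17.4% and 23.3% to between 5.75% and 11.6%. For both genes the shares of the groups did not overlap. The lower share of HSP17.4 is not a lower level, since its mean was 19.3 CPM after 0 h and 27.3 CPM after 4 h. Most of the family's reads thus came from the genes that passed the test.

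Across the family the 0 h libraries kept a similar order. Replicate 2 was the highest 0 h library for 7 of the 8 genes, all but HSP18.2, where this held for 33.6% of all genes tested. Replicate 1 was the lowest for 6 of 8 (31.5% of all genes tested). The members' median SD of log2 CPM among the 0 h libraries was 0.76, against 0.29 over all genes tested, although several members have few reads. Other HSP20-type genes were highest in 0 h replicate 2 in 4 of 7 cases, chaperone partners in 6 of 17, and heat stress factors with their co-regulators in 1 of 12. The same library had the highest summed root markers of the 0 h group (1037 CPM, against 699 and 694). It also had the highest summed green leaf markers of that group (75436 CPM, against 65842 and 73571). The part of these differences in the result was not tested.

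Leaving out 0 h replicate 2, the highest 0 h library for most of these genes, moves their estimates up by construction. It put 5 of the 8 past the test as higher, where 7.95% of all genes tested in that fit were higher. HSP17.6II then had a log2 fold change of 2.06 (edgeR adjusted p = 0.00435), AT1G53540 of 2.11 (edgeR adjusted p = 0.00736), and HSP17.6A moved to 2.46. The summed level rose to a ratio of 4.04. Leaving out 0 h replicate 1, the lowest 0 h library for most of them, moved the same genes down, HSP17.6II to 0.42 (edgeR adjusted p = 0.640), AT1G53540 to 0.48 (edgeR adjusted p = 0.577) and HSP17.4 to 0.22 (edgeR adjusted p = 0.750), and gave a ratio of 2.57. AT1G59860, AT1G07400 and HSP17.6A passed the test whichever library was left out, at log2 fold changes from 2.72 to 2.99, from 1.51 to 2.04 and from 1.67 to 2.46.

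**Figure D4:**
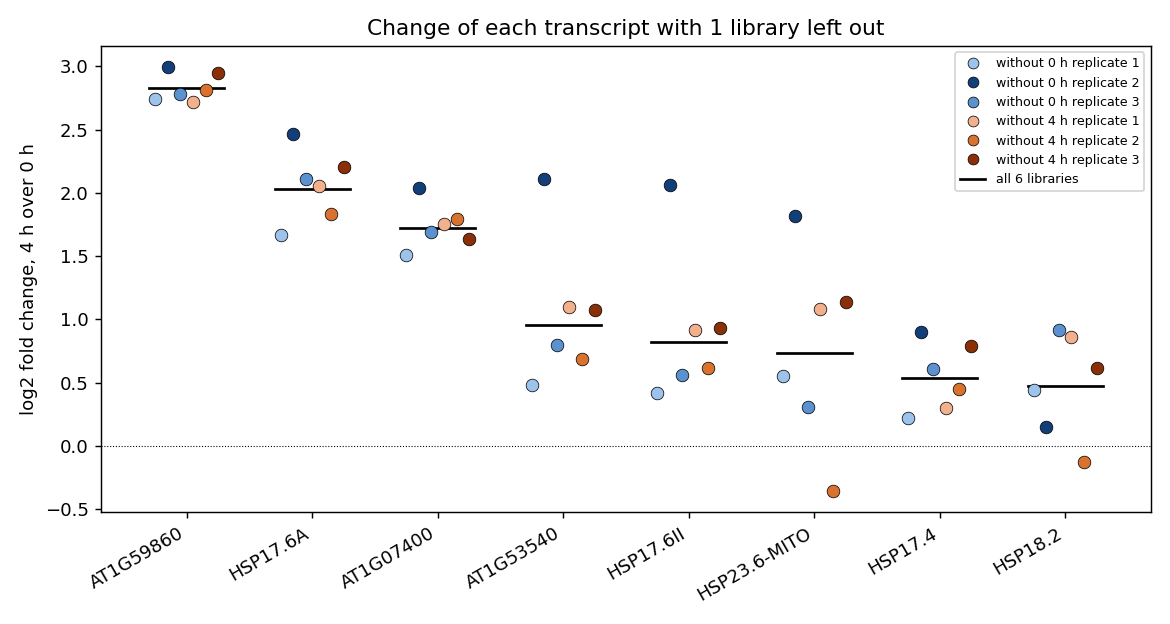
Log2 fold change of each gene with all 6 libraries (black line) and with each library left out in turn (points, blue shades for 0 h and orange shades for 4 h). Leaving out 0 h replicate 2 (darkest blue) raised AT1G53540 from 0.95 to 2.11 and HSP17.6II from 0.82 to 2.06, and leaving out 4 h replicate 2 took HSP18.2 and HSP23.6-MITO below 0.

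Of 10 other HSP20-type genes listed, 7 were tested, and by edgeR 0 were higher and 1 was lower (14.3%). Over all genes tested, 8.37% were higher and 8.18% lower. Of the 7 estimates 5 were above 0, with a median log2 fold change of 0.32, against -0.06 over all genes tested. The difference from the 8 genes above was not tested. Without adjustment edgeR put 1 higher and 2 lower at p under 0.05, and after adjustment DESeq2 called 0 and limma-voom 1 higher. The shares of 8.37% and 8.18% belong to adjusted edgeR calls and are no background for these counts. The one that fell was ACD32.1 (AT1G06460), an α-crystallin domain protein of the peroxisome. It went from 103, 133 and 107 CPM to 51.9, 49.7 and 44.5 CPM, a log2 fold change of -1.23 (edgeR adjusted p = 3.65e-05, SE 0.19). AT2G29500 was found at 11.0, 36.9 and 21.3 CPM after 0 h and at 41.4, 43.3 and 34.6 CPM after 4 h (log2 fold change 0.77, edgeR adjusted p = 0.0744), and 0 h replicate 2 was again the library that overlapped. RTM2, which restricts the spread of a plant virus, had a log2 fold change of -0.75 (edgeR adjusted p = 0.133) and AT5G54660 of 0.32 (edgeR adjusted p = 0.322). AT4G21870, annotated as a heat shock protein family gene and taken by the study as a superoxide-sensitive gene, had between 4 and 13 reads per library and a log2 fold change of 0.37 (edgeR adjusted p = 0.695, SE 0.52).

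Among heat stress factors and their co-regulators, 12 of 22 were tested, and by edgeR 5 were higher (41.7%) and 0 lower. The shares over all genes tested were 8.37% higher and 8.18% lower. The median log2 fold change was 0.42, against -0.06 over all genes tested. Without adjustment 1 was lower, and DESeq2 called 4 higher and 0 lower, HSFB2A having an adjusted p of 0.0561. For these counts too the shares over all genes by direction are not given. HSFA2 amplifies the induction of small heat shock proteins during prolonged stress. It was found at 6.73, 4.10 and 3.44 CPM after 0 h and at 22.3, 21.7 and 20.8 CPM after 4 h, a log2 fold change of 2.17 (edgeR adjusted p = 0.000109, SE 0.36). Its highest 0 h library was replicate 1, and the groups were well apart. MBF1C, a transcriptional coactivator of thermotolerance, rose by 1.09 on the log2 scale (edgeR adjusted p = 4.45e-05). The class B factor genes HSF4 (AT4G36990) and AT-HSFB2B rose by 0.75 and 0.94 (edgeR adjusted p = 0.00185 and 0.0146), as did HSFB2A, named after its value was seen, by 0.91 (edgeR adjusted p = 0.0189). The class A1 factors HSF1 and HSF3, which start the heat response, had log2 fold changes of -0.20 and 0.03 on between 2 and 9 reads per library.

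Among chaperones that work with small heat shock proteins, 17 of 20 were tested, and by edgeR 4 were higher (23.5%) and 1 lower (5.88%). The shares over all genes tested were 8.37% higher and 8.18% lower. The median log2 fold change was 0.20, against -0.06 over all genes tested. HSP101, the disaggregase that frees proteins from aggregates, went from 19.6, 33.8 and 15.8 CPM to 76.0, 81.3 and 58.3 CPM (log2 fold change 1.61, SE 0.24, edgeR adjusted p = 3.51e-05). HSP70 (AT3G12580), the stress-inducible cytosolic form, rose by 1.06 (edgeR adjusted p = 0.000104), and the DNAJ gene AT2G20560 by 0.81 (edgeR adjusted p = 0.0230). AT3G09440, which also encodes an HSP70 and was named after seeing its value, rose by 0.54 (edgeR adjusted p = 0.0363). The gene that fell was PTAC5 (AT4G13670), a plastid nucleoid protein that binds HSP21, at -0.57 (edgeR adjusted p = 0.0344). By DESeq2 2 were higher and 0 lower, since AT2G20560, AT3G09440 and PTAC5 had adjusted p of 0.0686, 0.0540 and 0.0632. The DESeq2 shares over all genes by direction are not given here. The constitutive HSC70-1 had a log2 fold change of 0.05 (SE 0.13).

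The pattern of the 8 genes over the 6 libraries was taken as the median of their log2 CPM after centring each gene. It stood at -1.40, -0.05 and -0.79 in the 0 h libraries and at 0.54, 1.04 and 0.28 in the 4 h libraries. Among 5772 genes outside the lists with a mean of at least 20 reads, the 5 nearest by root mean square difference over the 6 libraries were AT2G44060, PDF1.4 (AT1G19610), AT5G35735, AT2G16660 and MKK5 (AT3G21220). Their differences lay between 0.20 and 0.29 log2 units, where the median over the 5772 was 0.83. AT2G44060, annotated as a late embryogenesis abundant protein, was found at 7.34, 15.4 and 7.57 CPM after 0 h and at 23.2, 34.3 and 23.7 CPM after 4 h. MKK5, a kinase of the stress MAP kinase cascade, was found at 7.95, 15.9 and 12.4 CPM and at 21.8, 28.9 and 24.7 CPM. In these nearest genes replicate 2 was the highest 0 h library in every case. The measure of likeness itself selects for this order.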

How the data were processed

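The submitters' processing notes name STAR, HTSeq, DESeq and DESeq2 beside cutadapt 1.8.3 and bcl2fastq 2.17.1.14, and the methods give Araport 11 as the reference. The authors deposited raw read counts per gene from bulk MARS-seq without a filter on molecular identifiers, so reads may include amplification copies, and the floors of 3 reads cover counting error only, whereas the edgeR intervals include the spread between libraries. The deposited normalized values (a signal of counts divided by size factors) served only to derive size factors for an alternative. The authors' log2 fold changes and p-values in the same table were not used.

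Groups came from the sample titles. Genes that reached 5 reads in 1 or more libraries were kept, and their counts were scaled by TMM and tested with edgeR 4.0.16 (quasi-likelihood, R 4.3.3) with Benjamini-Hochberg adjustment and a threshold of 0.05. The fit used edgeR where the study used DESeq2. Library sizes were 1012425 to 2185464 reads. Alternatives used DESeq2 1.42.0, limma-voom (limma 3.58.1), other scalings and filters, thinning, a replicate block and left-out libraries. Of 11167 identifiers, 11108 matched RefSeq symbols or locus tags. Coordinates and sequences are from RefSeq TAIR10.1, and transcripts were aligned with Biopython 1.88. Protein identity was planned and not run, and transcript identity took its place.

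The members and lists were chosen with earlier results of these data known. Every member was described, and in each other list up to 4 genes with the smallest p, with other genes said to be chosen after their values were seen. The likeness measure used log2 CPM with a prior count of 2.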

Additional observations from a re-analysis of the deposited data

How the results depend on the processing

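AT1G59860, AT1G07400 and HSP17.6A passed the test in all 19 alternatives, with log2 fold changes from 2.72 to 3.10, 1.51 to 2.04 and 1.64 to 2.61 and largest adjusted p of 6.98e-07, 7.67e-05 and 0.00143, the lowest value of HSP17.6A being that of the class II neighbours summed. The count of members higher was 3 under every other scaling, filter and tool tried, and ranged from 3 to 5 with 1 library left out (5 without 0 h replicate 2). It was 6 without 0 h replicate 2 and 4 h replicate 3, an alternative chosen after seeing the data. The member added to those 5 was HSP17.4 (1.13, edgeR adjusted p = 0.0314), while HSP23.6-MITO stood at 2.20 and did not pass (edgeR adjusted p = 0.101). The libraries left out were the highest 0 h library for 7 of the 8 and the lowest 4 h library for 6. The choice itself thus raised the count, and 6.71% of all genes tested in that fit were higher. HSP18.2 and HSP23.6-MITO changed sign without 4 h replicate 2, to -0.13 and -0.35 (adjusted p = 0.936 and 0.845), over ranges with 1 library left out of -0.13 to 0.92 and -0.35 to 1.82, on 41 and 42 reads in all. The cause was not tested. With a replicate block 5 members were higher, HSP17.6II (1.06, edgeR adjusted p = 0.0482) and AT1G53540 (1.19, edgeR adjusted p = 0.0298) being added. In that fit 1979 of 10622 genes differed in either direction, against 1758 without the block. Its share of all genes higher is not given, so the 5 have no background of their own. The deviations of libraries with the same number correlated at 0.02, 0.02 and 0.06, and each library correlated best with its own number. Correlations this small cannot show whether such libraries were prepared together, and the titles give only the number. The count of genes differing ranged from 1211 to 1548 with 1 library left out and was 1273 by DESeq2, and the ratio of the summed level ranged from 2.57 to 4.04 with 1 library left out. Of the chaperone partners DESeq2 called 2 higher and 0 lower, against 4 and 1. Depth limits the members with few reads: HSP23.6-MITO had 1 read in a library of each group.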
